A study of Mus musculus with 5 samples.

Results

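Pax2, Sox2, Tbx5, Hand1, Scx and Lhx6 are 6 genes of the Pax, Sox, T-box, basic helix-loop-helix (bHLH) and LIM homeobox families, which encode transcription factors of embryonic patterning. They were taken as the rows of the deposited tables that carry one of these 6 gene symbols, out of 2797 symbols in all. The 6 genes held 25 of the 4688 listed positions, and all 25 were in the table of positions with higher methylation in G5, with 0 in the table of lower positions. Scx had 13 positions, Tbx5 had 4, Pax2 and Hand1 had 3 each, and Sox2 and Lhx6 had 1 each.

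The cells were common myeloid progenitors (CMPs), precursors of granulocytes, macrophages, red cells and platelets, sorted from the bone marrow of mice of a strain background given as mainly C576BL/6, and each sample was a pool of mice. The G0 group was 3 pools of mice labelled TERTER/+ and normal, and the G5 group was 2 pools labelled TERTER/ER with short telomeres. All mice carried at least 1 copy of the TERT-ER allele, a telomerase reverse transcriptase fused to the oestrogen receptor that is inactive without its ligand. The labels give no age, sex or number of mice in a pool. Methylation was measured by reduced representation bisulfite sequencing (RRBS), which samples CpG-rich DNA and gives each cytosine's methylated share as a percent. Each sample had 29 to 38 M reads, and how many reads lie behind a percent is unknown. The tables hold no expression values, so the sorted cells could not be checked against their markers.

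These genes are best known outside the blood. In embryos and most adult tissues the CpG islands of such regulators are usually kept free of methylation, while Polycomb complexes hold many of them silent where they are not used. Gain of methylation at islands of this kind is a known feature of ageing and of many tumours, blood cancers among them. Methylation in CMPs says nothing by itself about whether a gene is transcribed, and no expression was measured here.

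A position is listed because it passed the authors' test on these same 5 pools, with a q-value under 0.01 and a difference over 10 percentage points. That the members differ between the groups is therefore part of how they were found, and the limma results below describe the spread between pools and are no independent evidence. Relabelling 3 and 2 pools gives 10 splits, so an exact permutation test of 1 position could not go below p = 0.1. Taken over the 25 positions, the 3 G0 pools averaged 16.4%, 15.9% and 15.3%, and the 2 G5 pools averaged 30.8% and 35.4%. The G0 mean was 15.9% ± 0.542 (SD, n = 3), the G5 mean was 33.1% ± 3.29 (SD, n = 2), and the gap between them was 17.3 points. Both G5 pools lay above all 3 G0 pools at 24 of the 25 positions, beside 86.9% of all 2618 higher positions. The one exception was in the Hand1 promoter. Limma's moderated test with Benjamini-Hochberg adjustment over all listed positions called 11 of the 25 (44%) at an adjusted p under 0.05, beside 33.2% of all higher positions. That count was 0 when G0 pool 1, G0 pool 2 or G0 pool 3 was left out. An unadjusted p under 0.05 was then found at 12, 12 and 10 of the 25. Calls over all 2618 higher positions fell as well, to 0, 9 and 0. A fit without a G5 pool leaves 1 pool in that group, so no conclusion is drawn from its calls. With the percents on a logit scale limma called 7 of the 25 (28%), beside 42.1% of all higher positions, so the order of the 2 shares turned round.

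**Figure D1:**
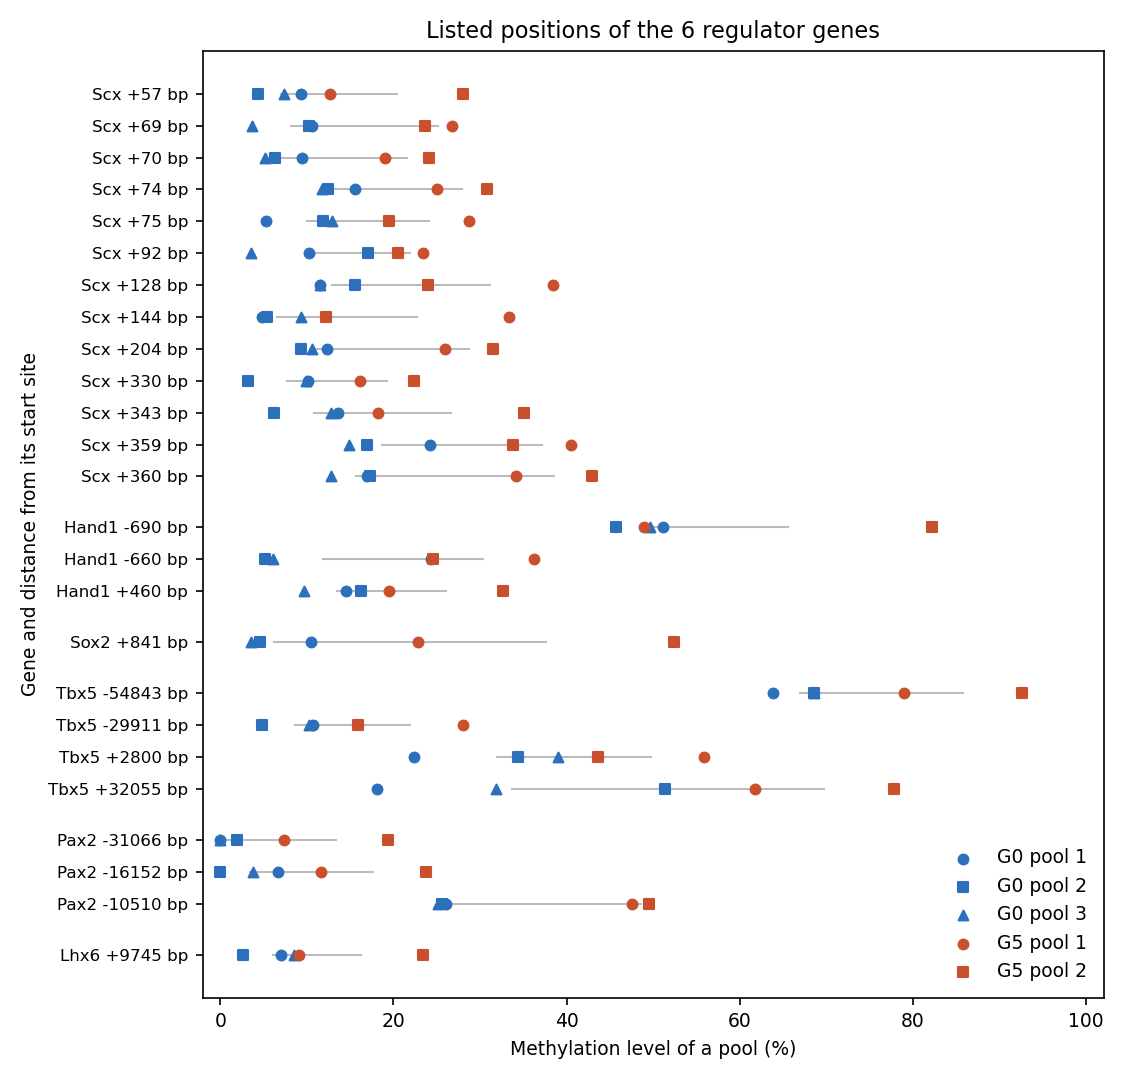
Methylation level of every pool (x axis, percent) at each of the 25 listed positions, named on the y axis by gene and distance from the start site. Blue marks are the 3 G0 pools, red marks the 2 G5 pools, and grey lines join the group means; the marks overlap at Hand1 -690 bp, where G5 pool 1 lies among the G0 pools.

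Scx encodes scleraxis, a bHLH factor of tendon and ligament progenitors. Its 13 positions lay on chromosome 15 (mm10), 76457493 to 76457796, from 57 to 360 bp downstream of the start site on the plus strand. All 13 were flagged as promoter, exon and CpG island. They were also flagged as intron, because Scx lies inside an intron of Bop1, a ribosome biogenesis gene on the opposite strand. In RefSeq, 8 of the positions fall in the 5′ untranslated region (UTR) of exon 1 and 5 in its coding part, which begins at 76457602. The 13 positions are the cytosines of 10 CpGs, 3 of which were listed on both strands. The stretch holds 40 CpGs in all, so 30 others were not listed, and whether those were measured is not known. The coding part of the stretch is shown because 4 of its 29 CpGs, in capitals, carry the 5 listed coding positions (plus strand, chr15:76457602-76457826).
Scx coding part: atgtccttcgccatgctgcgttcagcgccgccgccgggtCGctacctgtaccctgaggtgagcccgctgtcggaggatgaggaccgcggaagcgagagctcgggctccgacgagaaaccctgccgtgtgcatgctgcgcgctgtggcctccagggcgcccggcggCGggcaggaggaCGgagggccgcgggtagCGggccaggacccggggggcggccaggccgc

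Averaged over its positions, Scx stood at 11.9%, 10.5% and 9.70% in the G0 pools and at 26.3% and 26.8% in the G5 pools. The group means were 10.7% ± 1.09 (SD, n = 3) and 26.6% ± 0.341 (SD, n = 2), a difference of 15.9 points. The pools of each group were close together and the groups did not overlap. At all 13 positions both G5 pools lay above every G0 pool, beside 86.9% of all higher positions. Differences at single positions ran from 11.5 to 22.9 points. The largest was at 360 bp, where the G0 pools were at 16.9%, 17.3% and 12.7% and the G5 pools at 34.2% and 43.0% (limma adjusted p = 0.0426). Limma called 7 of the 13 (53.8%), beside 33.2% of all higher positions, and the 13 adjusted p-values ran from 0.0426 to 0.0881. The 13 positions belong to 10 CpGs of 1 locus and are not 13 independent readings. The 8 positions of the UTR went from 9.40% ± 1.15 (SD, n = 3) to 24.4% ± 2.15 (SD, n = 2), while the 5 coding positions went from 12.7% ± 2.47 (SD, n = 3) to 30.1% ± 4.33 (SD, n = 2). The gain was thus 15.0 points in the UTR and 17.3 points in the coding part, and the difference between both parts was not tested.

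The close agreement of the G5 pools in the Scx mean hides opposite deviations along the exon. Cutting the reference at CCGG, the site of the enzyme MspI that this assay usually uses and that the labels do not name, puts the 13 positions on 4 fragments of 40, 70, 125 and 47 bp. The 40 bp fragment, all in the UTR, holds 5 positions. At 57 bp the G0 pools stood at 9.38%, 4.38% and 7.35% and the G5 pools at 12.7% and 28.0%. At 69 and 70 bp, the strands of 1 CpG, the G0 pools stood at 10.6%, 10.2% and 3.67% and at 9.47%, 6.29% and 5.16%, and the G5 pools at 26.7% and 23.7% and at 19.0% and 24.1%. At 74 and 75 bp, also 1 CpG, the G0 pools stood at 15.6%, 12.5% and 11.7% and at 5.33%, 11.9% and 12.9%, and the G5 pools at 25% and 30.9% and at 28.7% and 19.5%. The smallest step between the groups here was at 57 bp, where G5 pool 1 was close to the highest G0 pool, and the mean level of the fragment went from 9.09% to 23.8%.

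The next fragment, of 70 bp, has its 3 positions in the UTR. At 92 bp the G0 pools stood at 10.3%, 17.0% and 3.54% and the G5 pools at 23.4% and 20.5%. At 128 bp they stood at 11.5%, 15.6% and 11.5% and at 38.4% and 24%. At 144 bp they stood at 4.85%, 5.41% and 9.35% and at 33.3% and 12.2%. G5 pool 1 was the higher G5 pool at all 3 positions. The 125 bp fragment holds 1 position, at 204 bp in the coding sequence, with 12.3%, 9.30% and 10.6% in the G0 pools and 25.9% and 31.5% in the G5 pools.

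On the 47 bp fragment, the last one, the G0 pools stood at 10.1%, 3.19% and 9.90% at 330 bp and the G5 pools at 16.1% and 22.3%. At 343 bp they stood at 13.6%, 6.17% and 12.7% and at 18.3% and 35.1%. At 359 bp, the other strand of the CpG of 360 bp, they stood at 24.2%, 16.9% and 14.9% and at 40.5% and 33.8%. This CpG had the highest level of the Scx positions in both groups. On the 70 bp fragment, with 3 positions from 92 to 144 bp, G5 pool 1 averaged 31.7% and G5 pool 2 averaged 18.9%. On the 47 bp fragment, with 4 positions from 330 to 360 bp, the order was turned, with 27.3% in G5 pool 1 and 33.5% in G5 pool 2. The widest gap between the G5 pools within Scx was at 144 bp. Positions of 1 fragment on the same strand can share reads, and both strands come from the same pools. The positions are therefore not independent of each other.

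At the 3 Scx CpGs listed on both strands, the levels of the strands can be set side by side. At the CpG of 76457506 the difference was 17.0 points on the plus strand and 14.6 on the minus strand. At 76457511 it was 14.7 and 14.1 points, and at 76457796 it was 18.5 and 22.9 points. These 3 CpGs were taken because both strands were listed as higher, so a rise on both strands was fixed by that choice. The rest of the 10 listed Scx CpGs had only the plus or only the minus strand listed. Whether their other strand was measured is not known. The levels of both strands differed by 2.95 to 5.42 points on average over the 5 pools, and the median of that gap was 5.63 points over all 40 CpGs with both strands in the higher table.

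**Figure D2:**
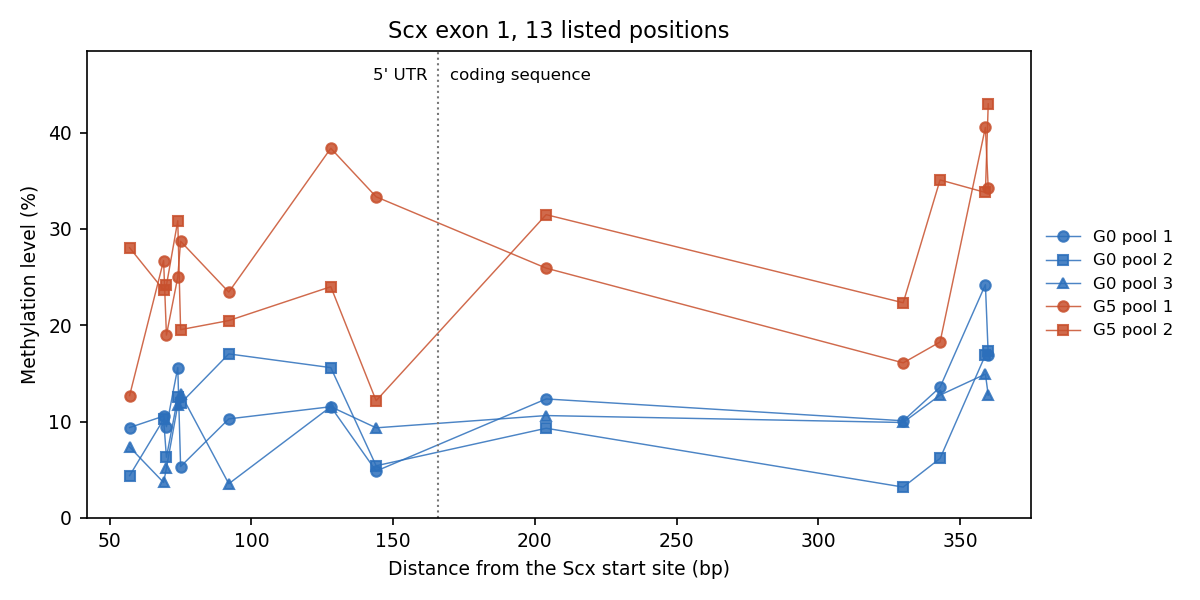
Methylation level (y axis, percent) of the 13 Scx positions against distance from the start site (x axis, bp), one line per pool, blue for G0 and red for G5. The dotted line marks the start of the coding sequence; at every position both red points lie above the blue ones, and the red lines cross each other several times.

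Hand1 is a bHLH factor of the heart, the trophoblast and extraembryonic mesoderm. Its 3 positions lay on chromosome 11 on both sides of the start site, and all 3 were flagged as promoter. The island position 460 bp downstream (57831688) falls in the coding part of exon 1, and the sequence around it is shown on the minus strand, on which the gene is read, with the listed CpG in capitals (chr11:57831628-57831749).
Hand1 coding part: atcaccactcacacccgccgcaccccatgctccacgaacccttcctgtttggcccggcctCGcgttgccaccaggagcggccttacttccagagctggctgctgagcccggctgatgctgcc

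At this coding position the G0 pools stood at 14.6%, 16.3% and 9.68% and the G5 pools at 19.5% and 32.6%. The groups did not overlap, and the difference was 12.5 points (limma adjusted p = 0.0824). The other 2 positions, at -660 and -690 bp, were flagged as island shore, the flank of an island. In RefSeq they lie in the predicted noncoding gene Gm32915, which runs away from Hand1 on the plus strand. At -660 bp the G0 pools stood at 24.3%, 5.17% and 6.12% and the G5 pools at 36.2% and 24.6%. G5 pool 2 there lay just above G0 pool 1. At -690 bp the G0 pools stood at 51.1%, 45.7% and 49.6% and the G5 pools at 49.0% and 82.2%. Here the groups overlapped, since G5 pool 1 was within the G0 range and the difference of 16.8 points came from G5 pool 2. Limma called 0 of the 3 Hand1 positions, of which 1 had an unadjusted p under 0.05, and the adjusted p-values ran from 0.0720 to 0.143. Over the 3 positions the G0 pools had a mean of 24.7% ± 4.58 (SD, n = 3) and the G5 pools one of 40.7% ± 8.18 (SD, n = 2). The difference was 15.9 points, and 10.2 points without G5 pool 2.

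Sox2 keeps embryonic stem cells and neural progenitors undifferentiated. Its single position, at chromosome 3, 34650844, lay 841 bp downstream of the start site in a CpG island and in the coding part of the gene's only exon. The tables also flag it as promoter, although 841 bp is past the 500 bp window of the assigned start. This is not particular to Sox2, since positions 848 and 850 bp downstream of the Sox14 start carry the promoter flag too. The position is also flagged as intron, since Sox2 lies within an intron of the noncoding Sox2ot. The sequence around the listed CpG is shown on the plus strand (chr3:34650784-34650905), where it is 1 of 13 CpGs.
Sox2 coding part: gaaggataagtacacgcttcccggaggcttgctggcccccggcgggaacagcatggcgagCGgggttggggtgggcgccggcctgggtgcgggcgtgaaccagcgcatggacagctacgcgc

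The G0 pools stood at 10.5%, 4.55% and 3.57% at the Sox2 position and the G5 pools at 22.9% and 52.4%. Both G5 pools were above the G0 pools, but they were also far from each other. The means were 6.21% ± 3.77 (SD, n = 3) and 37.6% ± 20.9 (SD, n = 2), a difference of 31.4 points by the plain means and 26.5 points in the authors' deposited table (limma adjusted p = 0.0468). Without G5 pool 2 the difference of means was 16.6 points, and without G5 pool 1 it was 46.2 points. A larger difference was given for 206 of the 2618 higher positions in the authors' deposited table.

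Tbx5 is a T-box factor of the heart and the forelimb. Its 4 positions on chromosome 5 were spread from -54843 to 32055 bp around the start site, with none in the promoter window and 1 in a CpG island. The 2 positions shown here are the ends of that range and differ in CpG density (plus strand, chr5:119866656-119866777 and chr5:119779760-119779881). The first holds 8 CpGs and the second 2, and the listed CpG is in capitals.
Tbx5 intron: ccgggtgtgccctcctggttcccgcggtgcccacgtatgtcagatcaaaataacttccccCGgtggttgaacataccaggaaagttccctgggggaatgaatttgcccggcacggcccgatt
Tbx5 upstream: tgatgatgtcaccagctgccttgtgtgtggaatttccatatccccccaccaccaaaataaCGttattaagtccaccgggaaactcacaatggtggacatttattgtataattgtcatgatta

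The intronic shore position at 32055 bp (119866716) had the largest difference of all 25. The G0 pools there stood at 18.1%, 51.4% and 31.8% and the G5 pools at 61.7% and 77.8%. The groups did not overlap, though the G0 pools were themselves far apart. The difference was 36.0 points by the plain means and 38.9 points in the authors' deposited table, where 32 higher positions had a larger one (limma adjusted p = 0.0483). Its cytosine is also the only one of the 25 within a CCGG site, a place held by 1097 of all 2618 higher positions (41.9%). At -54843 bp (119779820), between genes, the level was high in both groups, with 63.8%, 68.6% and 68.6% in the G0 pools and 79.0% and 92.6% in the G5 pools. The difference was 18.8 points (limma adjusted p = 0.0483).

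The other 2 Tbx5 positions lay nearer the start site. At 2800 bp (119837461), in an intron and outside islands and shores, the G0 pools stood at 22.3%, 34.4% and 39.0% and the G5 pools at 55.8% and 43.6%. At -29911 bp (119804752), in an island that predicted RefSeq transcripts place in a Tbx5 intron, they stood at 10.8%, 4.81% and 10.3% and at 28% and 15.9%. The groups were apart at both, by 17.8 and 13.3 points, and limma called neither, with adjusted p-values of 0.0660 and 0.0703. Over the 4 positions Tbx5 went from 35.3% ± 5.82 (SD, n = 3) to 56.8% ± 0.945 (SD, n = 2), a difference of 21.5 points. The 3 positions outside the island started at 44.2% ± 8.58 (SD, n = 3), above the starting level of every other member.

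Tbx3, which encodes the neighbouring T-box factor of limb and heart, had 5 higher positions within 150 kb of those of Tbx5. They lay in an exonic island 9902 to 9938 bp downstream of its start site. The G0 pools stood at 3.25%, 6.00% and 4.86% there and the G5 pools at 2.68% and 31.7%. G5 pool 1 was below every G0 pool, so the groups overlapped at all 5 and the listed difference came from G5 pool 2. Apart from these and 1 higher position assigned to Sap30l near Hand1, a subunit gene of a histone deacetylase complex, no other position of either table lay within 150 kb of the members' positions.

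Pax2 is a paired-box factor of the kidney, the optic stalk and the inner ear. Its 3 positions on chromosome 19 were all in CpG islands upstream of the assigned start site, at -10510, -16152 and -31066 bp, and carried no promoter, exon or intron flag. The position at -10510 bp (44746884) is nonetheless inside Pax2 in the RefSeq annotation of GRCm38.p6. There it falls in the 5′ UTR of the first exon of 2 longer transcripts, 283 bp from their start at 44746601. The position at -16152 bp lies in an intron of the predicted noncoding gene Gm35610, 452 bp from the start of its transcripts. The island at -16152 bp is shown (plus strand, chr19:44741183-44741304), where the listed CpG in capitals is 1 of 9.
Pax2 upstream island: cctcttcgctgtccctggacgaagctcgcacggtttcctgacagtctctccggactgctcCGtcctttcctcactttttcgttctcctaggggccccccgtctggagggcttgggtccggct

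At -10510 bp the G0 pools stood at 26.1%, 25.7% and 25.2% and the G5 pools at 47.6% and 49.5%. Pools of each group lay within 2 points of each other, and the difference of 22.9 points gave the smallest adjusted p of the 25 positions (limma adjusted p = 0.0412). At -16152 bp (44741242) the G0 pools stood at 6.67%, 0% and 3.80% and the G5 pools at 11.6% and 23.7%. At -31066 bp (44726328) the G0 pools stood at 0%, 1.92% and 0% and the G5 pools at 7.32% and 19.4%. The groups were apart at both, by 14.2 and 12.7 points, and limma called neither, with adjusted p-values of 0.0647 and 0.0700. Over the 3 positions Pax2 went from 9.93% ± 0.899 (SD, n = 3) to 26.5% ± 6.14 (SD, n = 2), a difference of 16.6 points.

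Lhx6 is a LIM homeobox factor of cortical interneurons that arise in the medial ganglionic eminence. Its single position, at chromosome 2, 36094316, lay 9745 bp downstream of the start site, in an exonic CpG island and in coding sequence of all 5 curated RefSeq transcripts. The sequence is shown on the minus strand, on which the gene is read (chr2:36094257-36094378).
Lhx6 coding part: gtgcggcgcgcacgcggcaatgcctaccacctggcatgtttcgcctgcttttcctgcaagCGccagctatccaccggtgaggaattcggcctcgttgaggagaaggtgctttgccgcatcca

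The G0 pools stood at 7%, 2.63% and 8.54% at the Lhx6 position and the G5 pools at 9.09% and 23.5%. G5 pool 1 exceeded the highest G0 pool by less than 1 point. The difference of 10.2 points was the smallest of the 25 by the plain means, while in the authors' deposited table that of Scx at 57 bp was smaller, with 10.2 points against 10.9. The Lhx6 difference rested on G5 pool 2, since without that pool it was 3.03 points, and without G5 pool 1 it was 17.4 points. Limma did not call it (limma adjusted p = 0.132, unadjusted p = 0.117).

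In order of the G0 level of their listed positions, Lhx6 at 6.06% and Sox2 at 6.21% were lowest, followed by Pax2 at 9.93%, Scx at 10.7%, Hand1 at 24.7% and Tbx5 at 35.3%. Lhx6, Sox2, Pax2 and Scx neighbour each other within the SDs of the G0 pools. In G5 the order was Lhx6 at 16.3%, Pax2 at 26.5%, Scx at 26.6%, Sox2 at 37.6%, Hand1 at 40.7% and Tbx5 at 56.8%, and Pax2 and Scx did not differ beyond their spread. Sox2, with its G5 pools far apart, did not differ from Scx or Hand1 beyond its own. G5 pool 2 was the higher G5 pool at 16 of the 25 positions, among them all positions of Pax2, Sox2 and Lhx6, while among all higher positions it was the higher one at 47.5%. At the 12 positions outside Scx the G5 pools averaged 35.6% and 44.8%.

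**Figure D3:**
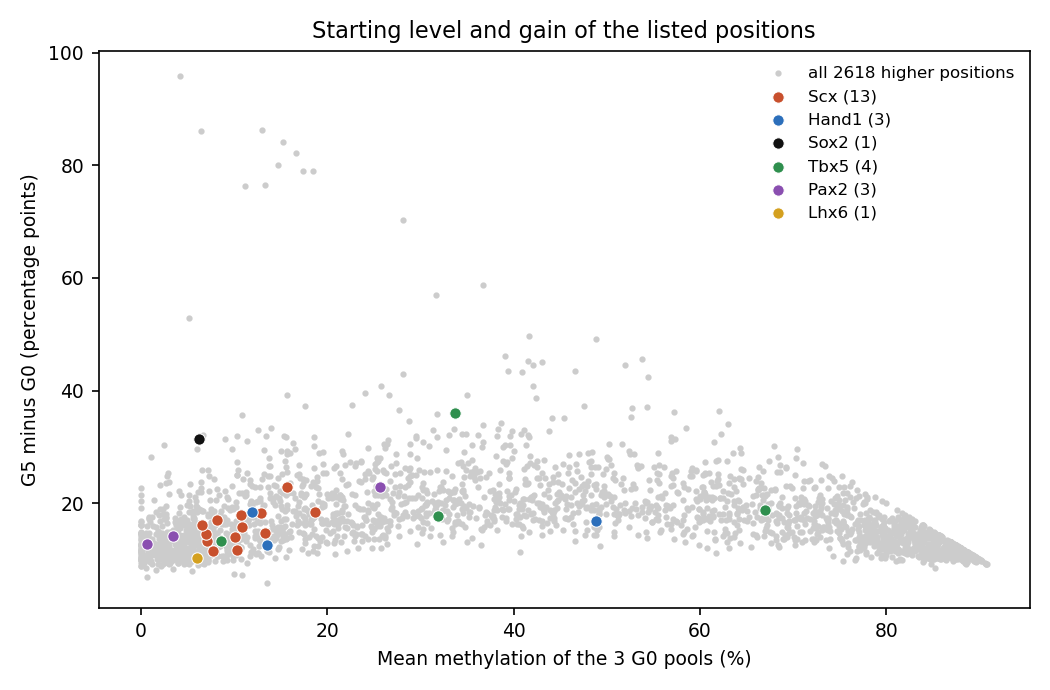
Difference between groups (y axis, percentage points, G5 minus G0) against the mean level of the 3 G0 pools (x axis, percent) for all 2618 higher positions in grey and the 25 member positions in colour, with the number of positions of each gene in the key. Most coloured points lie at G0 levels under 20% and differences of 10 to 23 points; Sox2 and the Tbx5 position 32055 bp downstream stand above them.

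Set beside all higher positions, the 25 positions were more often in islands and promoters, and much of that came from Scx. Of the 25 positions 20 lay in CpG islands (80%), beside 43.0% of all higher positions, and 17 in promoters (68%), beside 28.2%. Scx holds 13 of both counts. Outside Scx 7 of 12 positions were in islands (58.3%) and 4 in promoters (33.3%). The mean G0 level was under 20% at 20 of the 25 positions, beside 34.6% of all higher positions, and at 7 of 12 (58.3%) outside Scx. The median G0 level was 10.8% over the 25, 12.7% outside Scx and 38.8% over all higher positions. Island positions as a whole started low, with a median of 15.7%, and the 20 island positions of the members had a median of 9.32%. Of these 20, 15 were also in promoters, and the median over all higher promoter island positions was 7.63%. The size of the change was like that of the lists at large, with a median of 16.2 points for the members and 16.3 points for all higher positions. The window of 60 bp on each side of the listed CpG held a median of 13 CpGs over the 25 positions, 15 in Scx and 9 outside Scx, beside 8 over all higher positions and 13 over higher island positions. The palindrome CCGG was found in such windows of 100% of the members' positions and of 100% of all higher positions. The members' CpGs lay on 16 CCGG fragments of 39 to 125 bp. No test of these differences was made, since the members were chosen by name and Scx supplies most of the positions.

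The genes most like a member by their pool levels were sought among 215 other genes with at least 3 higher positions. The measure was the root mean square difference over the 5 pools. Nearest to Scx was Mxra7, a matrix remodelling gene, at 1.51 points. Its G0 mean was 12.4% ± 0.459 (SD, n = 3) and its G5 mean 27.1% ± 0.315 (SD, n = 2). Nearest to Pax2 was Mesp2, a bHLH factor of somite segmentation, at 1.53 points, and nearest to Hand1 was the hindlimb homeobox gene Pitx1 at 2.74 points. Nearest to Tbx5 was Trim30d at 2.94 points. Sox2 and Lhx6 had too few positions for this comparison.

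The wider families were described by lists of 115 genes in all, which include the 6 members. Higher positions were listed for 34 of the 115 genes (29.6%), beside 6.28% of RefSeq protein-coding genes. Lower positions were listed for 20 (17.4%), beside 5.82%. All 6 members count as higher here and in the family counts below, and they were chosen with earlier results known. They thus raise the higher share by choice and add nothing to the lower one. Of the 109 other genes, 21 had higher positions only, 13 had lower positions only and 7 had both. The number of CpGs measured at each gene is not known, and a gene with more CpGs has more chances to be listed. The share was above the background in both directions. By family, higher positions were listed for 6 of 9 Pax genes, 9 of 17 T-box genes, 5 of 19 Sox genes, 11 of 58 bHLH genes and 3 of 12 LIM homeobox genes. Lower positions were listed for 2 Pax, 2 T-box, 3 Sox, 8 bHLH and 5 LIM homeobox genes. Limma called 22 of the 71 higher positions of the families (31.0%), near the 33.2% of all higher positions, and 8 of the 22 lower ones (36.4%), near the 33.0% of all lower positions.

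**Figure D4:**
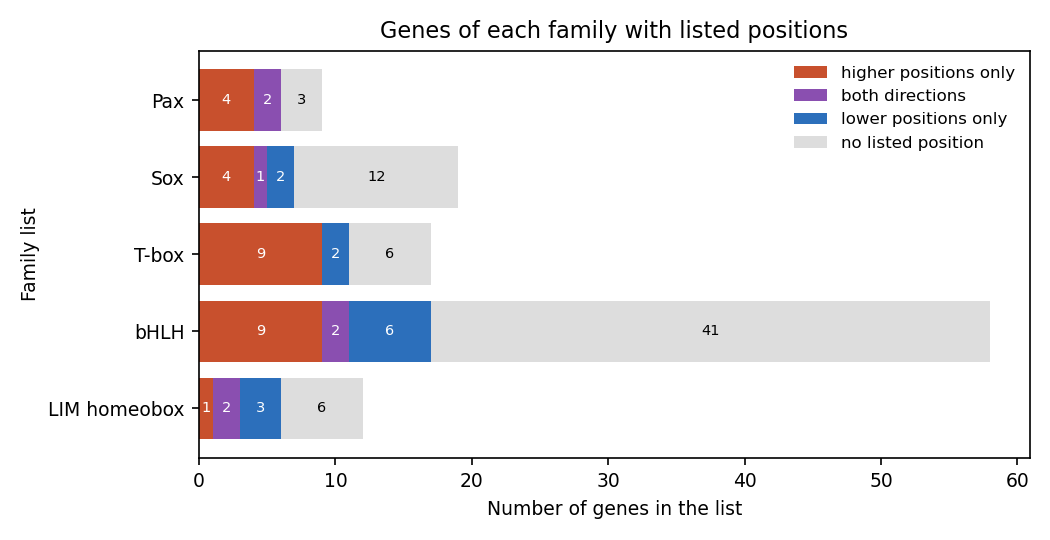
Number of genes (x axis) in each family list (y axis) by the direction of their listed positions in G5, with the 6 members counted among the genes with higher positions only. Grey marks genes with no listed position. Genes with higher positions outnumbered those with lower positions in the Pax, Sox, T-box and bHLH lists, and in the LIM homeobox list 3 genes had higher and 5 had lower positions.

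The 2 other genes with the most positions in each family give a range of patterns. In Pax6, of the eye and pancreas, 1 intronic island position went from 6.39% ± 2.27 (SD, n = 3) in the G0 pools to 18.9% ± 13.3 (SD, n = 2) in the G5 pools. Another 2 Pax6 positions, intronic and outside islands, went the other way, from 62.7% ± 6.50 (SD, n = 3) to 41.2% ± 1.08 (SD, n = 2). Pax1, of the vertebral column, had 1 higher position at 6.46% and 17.1% and 1 lower position at 51.6% and 33.3%, and the groups overlapped at the higher one. Sox30, of the testis, had 3 promoter island positions with a G0 mean of 64.8% ± 2.22 (SD, n = 3) and a G5 mean of 84.3% ± 4.12 (SD, n = 2). Limma called 2 of the 3. Sox14 had 2 promoter island positions at 4.32% and 15.5% and 1 distant lower position at 95.7% and 83.1%. Tbx1, of the pharyngeal arches, had 2 island positions upstream of the gene, which went from 36.3% ± 1.42 (SD, n = 3) to 59.4% ± 14.0 (SD, n = 2). Limma called both.

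In the bHLH family, Mesp2 had 3 promoter island positions with a G0 mean of 10.3% ± 1.29 (SD, n = 3) and a G5 mean of 27.0% ± 7.79 (SD, n = 2), and the groups were apart at 1 of them. Olig2, of oligodendrocytes and motor neurons, had 2 higher positions that went from 1.88% ± 1.92 (SD, n = 3) to 15.3% ± 15.8 (SD, n = 2), where the G5 pools stood at 4.17% and 26.5%. It also had 1 lower position at -68912 bp, with 90.6% and 70.1%. The LIM homeobox genes Lhx5 and Lmx1b had both kinds too. Lhx5 had 3 higher positions at 19.0% and 35.4% and 1 lower position at 92.1% and 70.0%. Lmx1b had 2 higher positions at 23.8% and 40.0% and 1 lower position at 12.5% and 0.649%. The groups overlapped at the lower one, where G0 pool 1 and G5 pool 1 both stood at 0%. These 10 genes are those with the most positions, and 6 of them were listed in both directions. Over all 109 family genes other than the members, 21 had higher positions only, 13 had lower positions only and 7 had both.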

How the data were processed

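The submitters' processing notes name Bowtie, Bismark 0.7.11, methylKit and the build mm10. Per the series' design text, about 63% of reads aligned, groups were compared by Fisher's exact test, and a promoter reached from 1 kb before to 500 bp past a RefSeq start. Promoter counts here follow the deposited flag, which also marks some positions further downstream than that. A coverage minimum is not given in the sources used here. What the authors deposited is 2 tables of passing positions with the percent methylation of each pool, p-values and q-values, and a difference score in percentage points, per the file headers. No read counts were given, so no counting interval could be made.

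Groups come from the sample titles, and 0 columns belonged to no sample. No sample was dropped or imputed. A gene name is the nearest start site, and all listed positions of a member were averaged within each pool before means and SDs over pools. Limma 3.58.1 (R 4.3.3) was fitted to the percents of all 4688 positions, with Benjamini-Hochberg adjustment over all of them. The fit was checked on simulated percents, with a small part of the positions shifted and the G0 spread in both groups. All listed positions were selected as different, so that check does not cover the setting of the calls given here. Pools are separate by their labels. File positions were read as counted from 0 on both strands, since all 4688 then fall on the cytosine of a CpG of GRCm38, and are printed as deposited. Sequences and transcripts are from RefSeq GRCm38.p6, with intervals counted from 1. Python 3.11.15, pandas 2.3.3, pysam 0.24.0 and matplotlib 3.10.9 were used.

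The members, family lists and alternatives were chosen with earlier results of these data known. Named genes were the 6 members, the 2 other genes with the most positions in each family, and the gene nearest to each member with at least 3 positions. The alternatives were a logit scale bounded at 1 and 99%, a q-value under 0.001, autosomes only, promoter or island positions only, the median over positions, the authors' difference, a block by pool number and each pool left out.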

Additional observations from a re-analysis of the deposited data

How the results depend on the processing

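The members' positions were listed for being higher on these pools, so the sign of their differences was fixed by that choice. A q-value under 0.001 left 9 member positions, all 9 without overlap of the groups, of which limma called 6. At that cutoff limma called 680 of all 1134 higher positions, so the members' share was near that of the whole list. Overlap of the groups was not counted over those 1134 positions, so whether 9 of 9 sets the members apart is not known. The cutoff moved the difference to 22.9 points in Pax2, 36.0 in Tbx5 and 17.0 in Scx. The median over positions moved it to 26.9 points in Tbx5 and 14.6 in Scx, and island positions alone gave 13.3 points in Tbx5. Moved here means a shift larger than the member's own SD pooled over both groups. That SD was 0.912 points in Scx, 3.62 in Pax2 and 6.03 in Hand1, so small shifts count in Scx. The median gave 13.5 points in Pax2 and 17.7 in Hand1, which did not count as moved. With a pool left out, the difference ranged from 12.2 to 20.9 points in Pax2, 16.6 to 46.2 in Sox2 and 3.03 to 17.4 in Lhx6. The range was 10.2 to 21.7 points in Hand1, 18.2 to 23.7 in Tbx5 and 15.4 to 16.5 in Scx. On the logit scale limma called 7 member positions, 6 of them among the 11, while calls over all higher positions went from 868 to 1103. The fit on autosomes only kept all 25 member positions and called 8 of them (32%), beside 648 of 2432 higher positions (26.6%). All 8 were among the 11. With a pool left out, limma called 0 to 14 member positions, 0 to 844 higher and 0 to 708 lower positions of all. The upper ends of these ranges came from fits with a lone G5 pool, which was assumed to vary like the G0 pools. No conclusion is drawn from those calls. Each fit without a G0 pool called 0 member positions, 0 to 9 higher and 0 lower positions.

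Pool numbers are shared by the titles of both groups, and nothing in the labels says that they pair mice. Deviations of same-numbered pools correlated at r = 0.0124 and r = 0.0476 over the listed positions. With the replicate block limma called 0 member positions, 0 higher and 0 lower positions, with 6, 835 and 691 at an unadjusted p under 0.05. That fit has 1 residual degree of freedom for each position. The authors' tables give no coverage, so what depth limits at a single CpG is not known. No Pax2, Tbx5 or Lhx6 position was flagged as promoter, and no Sox2, Hand1 or Lhx6 position had a q-value under 0.001, so those alternatives gave no value for them.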
